A study of Ovis aries with 2 samples.

Results

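Smooth muscle shortens when myosin filaments pull on actin filaments. In skin the machinery is found in mesenchymal cells, among them vascular smooth muscle, pericytes and the arrector pili muscle of the hair. It is also found in the myoepithelial cells around sweat glands, which are epithelial and hold keratins as well. The study that reported these data named a dermal sheath cluster by ACTA1 and ACTA2 and proposed ACTG2 as a potential marker of it. From stained skin sections it also reported the proteins CORIN and alpha smooth muscle actin as specific to dermal sheath cells. How the study's dermal sheath cluster maps onto the clusters below was not tested. The genes described here are 8 of the 18161 genes of the table and were chosen by name as parts of that machinery: the muscle actins ACTA1 (skeletal), ACTA2 (vascular smooth muscle) and ACTG2 (enteric smooth muscle), the smooth muscle myosin heavy chain MYH11 and regulatory light chain MYL9, the actin-binding proteins CNN1 (calponin) and TAGLN (transgelin), and DES (desmin), the intermediate filament of muscle. All 8 had counts in both libraries. Vascular smooth muscle is known for ACTA2 and MYH11, pericytes for RGS5 with less of the contractile set, and gut, bladder and uterine muscle for ACTG2 and desmin.

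The tissue was skin from the side of the body of Hu sheep lambs at 3 days of age, taken under local lidocaine. One library came from straight wool lambs and the other from curly wool lambs (labelled waved wool). Each library pooled 3 lambs, and cells freed from isolated hair follicles were mixed with cells freed from whole skin, so neither lambs nor the 2 ways of freeing cells can be told apart within it. With 1 library per wool type there is no test between wool types and no replicate check of any value. Ratios are given with 95% intervals that cover counting error only.

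The straight library held 6452 cells and 57956122 UMIs (unique molecular identifiers, 1 per captured RNA molecule), and the curly library 7585 cells and 77634565 UMIs. Medians were 7373.5 and 7495 UMIs per cell. The libraries shared 70 cell barcodes, and in 4 of these a cell lay in one of the contractile clusters described next, never in both libraries at once. Levels are given in CPM, the usual scaling of a gene's UMIs by the summed UMIs of a group of cells. UMIs are not corrected for transcript length, so levels are compared between cells and not between genes.

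Cells were grouped into 21 clusters from other genes, with the 8 members and a list of their pathway left out, and 2 clusters carried contractile markers. Those markers, MYLK, LMOD1, TPM2, SYNPO2 and PPP1R14A, were not left out and could take part in the clustering. The first cluster, 49 straight and 253 curly cells, is called keratin-positive contractile. Summed KRT5, KRT14 and KRT17, keratins of basal epithelium, stood at 12806 CPM (straight) and 14948.5 CPM (curly). In endothelial-like cells, which should not make keratins, the same sum was 2162 and 2034 CPM. Of those cells, 32 of 191 and 29 of 166 were among the top 6% of doublet scores. The part of free RNA and of doublets in that sum was not tested. At least 10 keratin UMIs were present in 38 of 49 and 239 of 253 cells. KRT8, a keratin of simple and glandular epithelium, was at 935 and 1023 CPM, and RGS5 had 0 UMIs in both libraries, a count that 3 UMIs bound at 7.21 CPM (straight) and 1.25 CPM (curly). The markers that name a myoepithelial cell beyond keratin were low: OXTR, the oxytocin receptor, had 4 and 7 UMIs, and TP63, a basal epithelial factor, was in 6 of 49 and 69 of 253 cells. Sums of some markers of other cell types stood higher in this cluster than in the mural one described next. The 5 luminal sweat gland genes, KRT8 among them, summed to 1308 and 1274 CPM against 26.2 and 39.2. The 4 dermal sheath genes summed to 791 and 584 CPM against 57.7 and 72.3, nearly all of it COL12A1. Only COL12A1 of the 4 had UMIs in the straight cells, so COL11A1 and CORIN were at 0 there. In the curly cells 2 of the 4 had UMIs. ITGA8, another of those 4, went the other way, at 0 CPM in both libraries against 26.2 and 33.1 in mural cells. The part of these markers in the values below was not tested.

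The second cluster, 84 straight and 154 curly cells, is called vascular mural by its markers. Its 8 mural markers in the table summed to 4037 and 1433.5 CPM, against 24.0 and 18.4 CPM in the keratin-positive contractile cells. Its keratin sum, 1531 and 2829 CPM, was below that of the endothelial-like cells in straight skin (2162 CPM) and above it in curly skin (2034 CPM). Fibroblast markers moved with it: the 6 listed genes summed to 3219 and 2278 CPM, against 43.3 and 58.1 CPM in the keratin-positive contractile cells, with LUM and DCN among them, and their part in the values below was not tested. RGS5, the defining pericyte marker, was in 62 of 84 straight cells (73.8%, exact binomial interval 63.1 to 82.8%) and 51 of 154 curly cells (33.1%, 25.8 to 41.1%). No list of arrector pili markers was used, so such cells cannot be told apart from vessel muscle here. Skeletal muscle markers were near 0 in both clusters, at 31.6 CPM or less for the 8 of 18 listed genes found in the data. The rest of that list, MYH1, MYH2 and MYOD1 among them, could not be checked. Cells of the keratin-positive contractile cluster were deeper, with medians of 7036 and 10887 UMIs, than mural cells, with 3928.5 and 3736.5. Among the top 6% of doublet scores were 5 and 22 keratin-positive contractile cells and 6 and 18 mural cells.

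**Figure D1:**
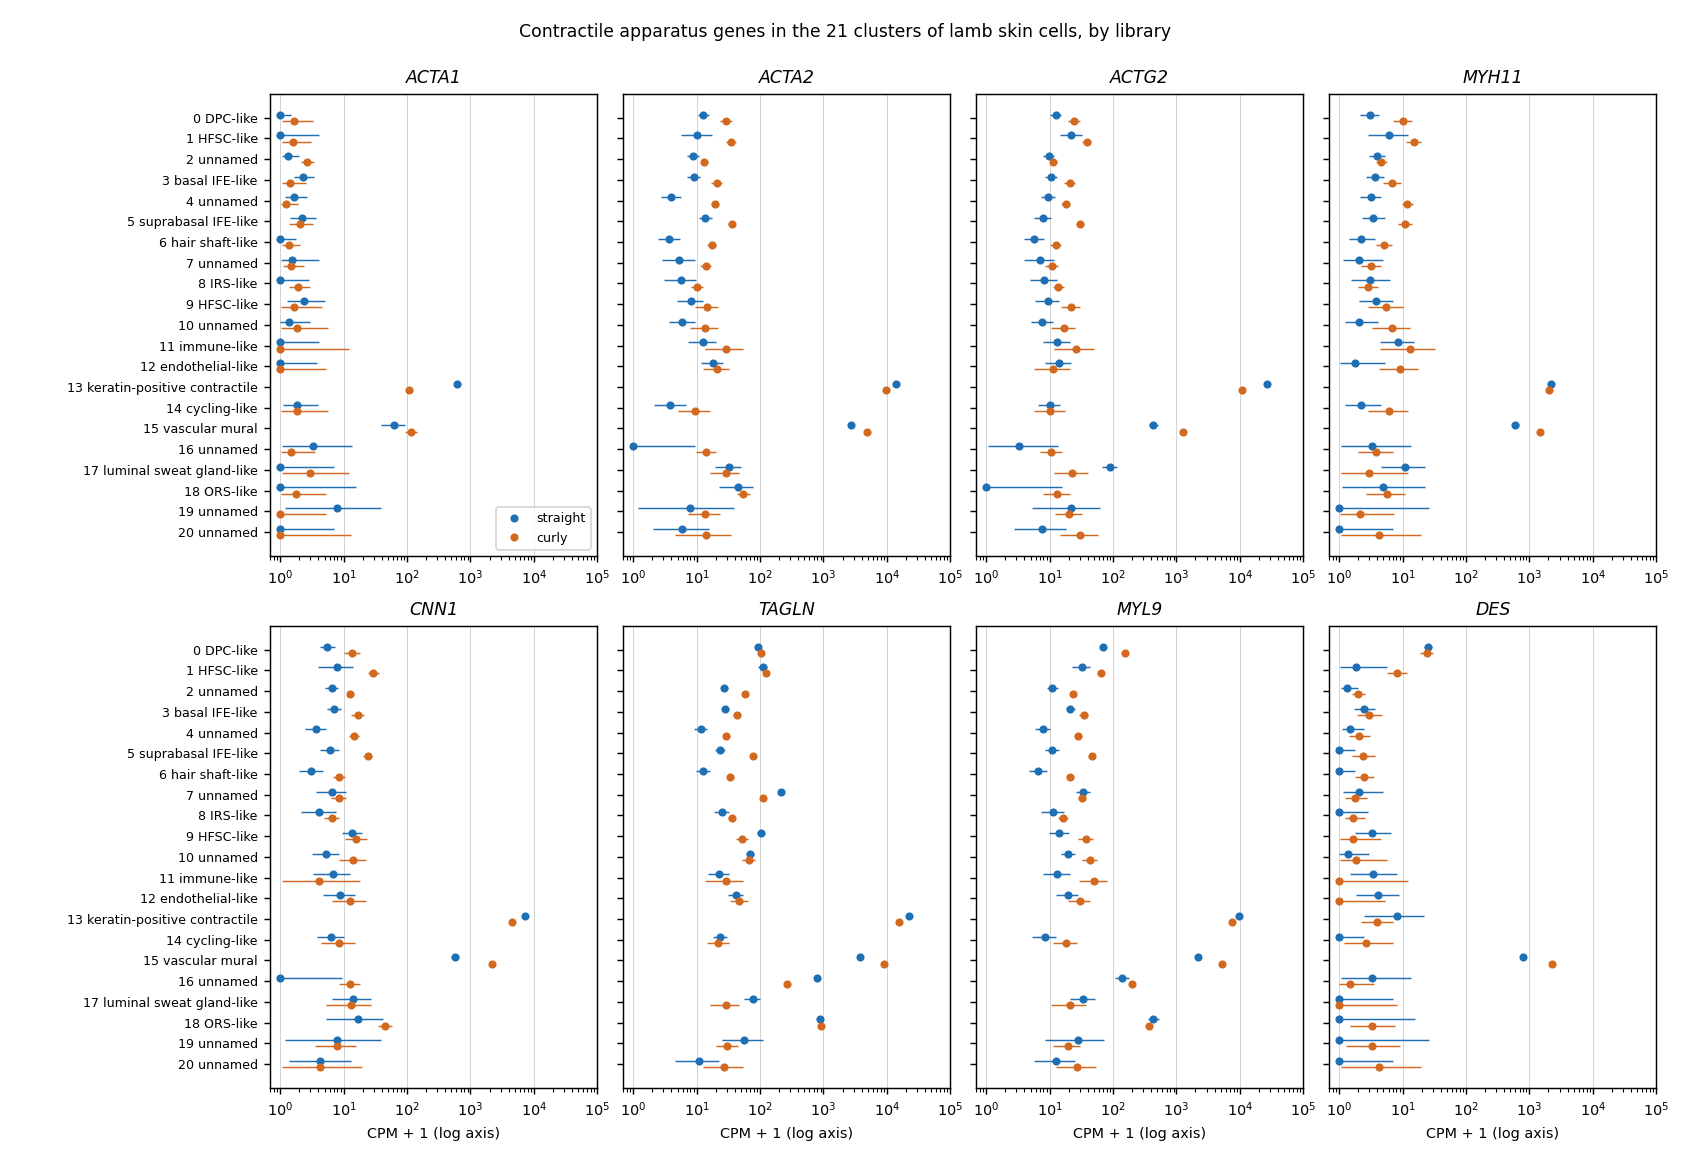
Level of each of the 8 genes in the 21 clusters, as CPM + 1 on a log axis, with 1 dot per library and 95% Poisson intervals. For all genes but DES the highest points are in clusters 13 (keratin-positive contractile) and 15 (vascular mural), and for DES cluster 15 stands at 794 and 2239 CPM and no other above 24.2 CPM.

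Most UMIs of the 8 genes lay in these clusters. Together the 2 clusters held 95.3% of all ACTG2 UMIs in straight and 95.7% in curly wool skin, and 93.9% and 95.2% of ACTA2. For ACTA1, MYH11 and CNN1 the shares ran from 84.4% to 93.4%. TAGLN and MYL9 were less confined, at 77.6% and 78.3% in straight and 88.0% and 86.7% in curly skin. DES had 57.4% of its UMIs there in straight and 89.7% in curly skin, nearly all in mural cells.

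Single cells carried the set together. At least 6 of the 8 genes were detected in 40 of 49 and 235 of 253 keratin-positive contractile cells, in 20 of 84 and 66 of 154 mural cells, and in 5 of 6319 and 15 of 7178 cells of the other 19 clusters. Of those outlying cells, 2 and 9 were among the 6% of cells with the highest doublet scores in their library. The 8 genes made up a median of 7.28% of a straight cell's UMIs and 4.33% of a curly cell's in the keratin-positive cluster, against 0.478% and 1.18% in mural cells. Among cells with at least 2000 UMIs, thinned to that number, a keratin-positive contractile cell showed 6.21 and 6.07 of the 8 genes on average (29 and 209 cells) and a mural cell 3.49 and 4.61 (75 and 113 cells). The thinning left out 20 and 44 shallower keratin-positive cells and 9 and 41 mural cells.

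**Figure D2:**
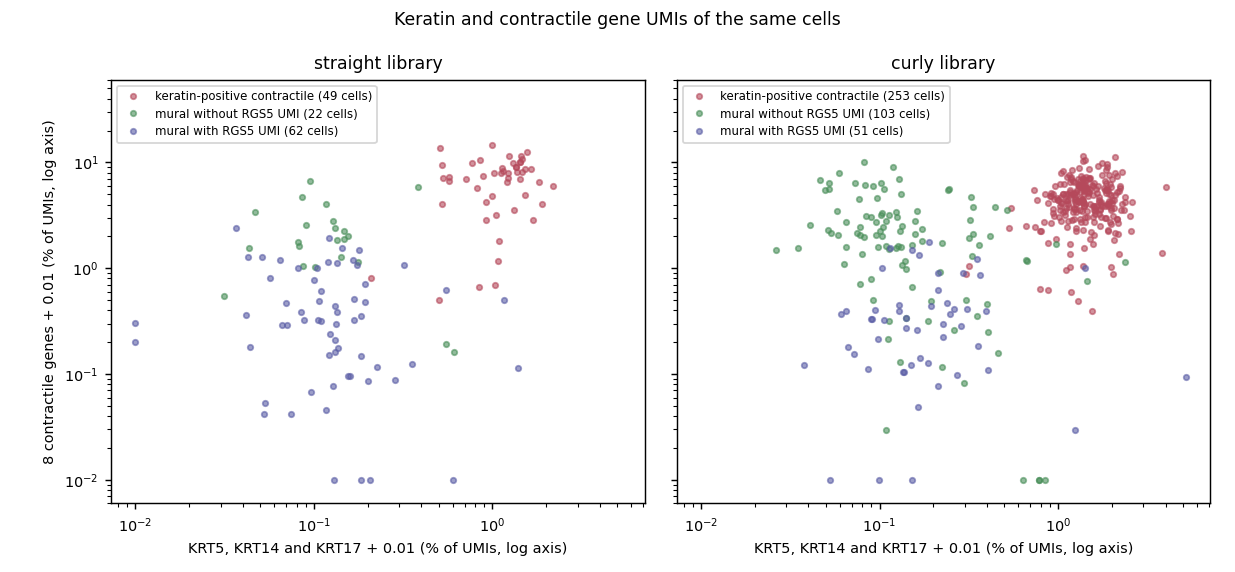
Each point is 1 cell, with the percent of its UMIs from KRT5, KRT14 and KRT17 on the x axis and from the 8 contractile genes on the y axis, both with 0.01 added and on log axes. Keratin-positive contractile cells sit high on both axes, with medians of 7.28% and 4.33% contractile UMIs, and mural cells spread down the contractile axis, mostly at low keratin.

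ACTG2, the actin of gut and bladder muscle, separated the clusters most among the 7 genes that were not desmin. Keratin-positive contractile cells held 26506 CPM (straight) and 10689 CPM (curly), with a median cell at 24515 and 8677 CPM and the highest cells at 52792 and 32467.5 CPM. Mural cells had 433 and 1287 CPM, a median of 0 in both libraries, and highest cells of 7747 and 8601 CPM. The straight cells were the highest group and the straight mural cells the lowest, and single cells of the clusters overlapped, since some keratin-positive cells had no ACTG2 UMI. The ratio of the pooled levels was 61.3-fold in straight (log2 5.94, interval 5.72 to 6.17) and 8.30-fold in curly skin (log2 3.05, 2.96 to 3.15).

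ACTA2, the smooth muscle actin that marks vessel walls, was nonetheless lower there than in the keratin-positive cells. It stood at 14111 and 9739 CPM in the keratin-positive contractile cells, with median cells of 11189.6 and 8951 CPM and highest cells of 27808 and 19613 CPM. In mural cells the pooled levels were 2737 and 4846 CPM, the medians 1464 and 2397 CPM and the highest cells 11557 and 19785 CPM. The medians of the mural cells were below both keratin-positive medians while their ranges overlapped. The keratin-positive level was 5.16-fold higher in straight (log2 2.37, 2.27 to 2.46) and 2.01-fold higher in curly skin (log2 1.01, 0.95 to 1.06).

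ACTA1, the actin of skeletal muscle, was found in few cells. It had 258 UMIs in 22 of 49 straight cells and 259 UMIs in 66 of 253 curly cells of the keratin-positive cluster, or 620.1 CPM (Poisson interval 547 to 701) and 108 CPM (95.4 to 122). One straight cell held 26.0% of those 258 UMIs. Mural cells had 23 and 77 UMIs, at 60.3 and 116 CPM. The difference between clusters thus went one way in straight skin (log2 3.36, 2.75 to 4.05) and was not detectable in curly skin (log2 -0.10, -0.47 to 0.29). In endothelial-like cells ACTA1 had 0 UMIs.

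Cells with ACTA1 also held ACTG2. All 22 and all 66 ACTA1-positive cells of the keratin-positive cluster had ACTG2 UMIs, at a pooled 30513 and 12581 CPM, against 13648 and 9811 CPM in the cells without ACTA1. The straight ACTA1-positive cells were far deeper, with a median of 15610 UMIs against 1663, and the curly ones slightly so, at 11801.5 against 10633. The share of cells with ACTA1 was 44.9% and 26.1% over all 49 and 253 cells at their own depth. Over the 29 straight and 209 curly cells with at least 2000 UMIs, thinned to that number, it was 35.0% and 13.6%, so these shares rest on different cells. The 3 muscle actins have nearly the same coding sequence, how reads matching more than 1 of them were counted is not given in the sources used here, and part of the ACTA1 count may belong to the others. ACTC1, the cardiac actin, had 0 UMIs in both clusters.

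The mix of actins differed along with the levels. ACTG2 was 64.3% of the UMIs of the muscle actins in straight (exact interval 63.6 to 65.0%) and 52.0% in curly keratin-positive contractile cells (51.6 to 52.5%), while in mural cells it was 13.4% (11.5 to 15.4%) and 20.6% (19.4 to 21.9%). Among cells with at least 20 muscle actin UMIs, ACTG2 exceeded 50% in 36 of 43 straight and 101 of 218 curly keratin-positive cells, and in 0 of 19 and 0 of 51 mural cells. The highest ACTG2 share in any such mural cell was 47.8%.

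**Figure D3:**
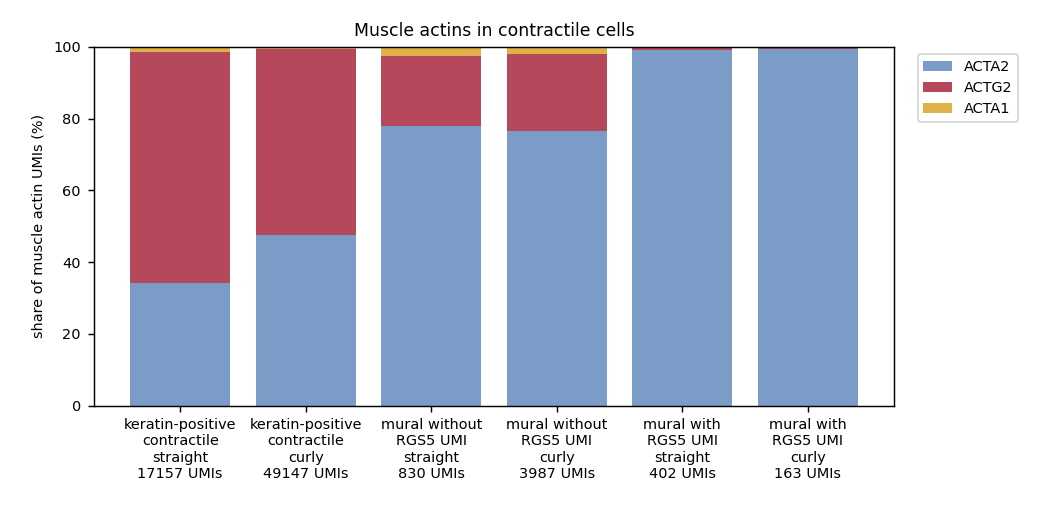
Share of muscle actin UMIs from ACTA1, ACTA2 and ACTG2 in percent, stacked, in each class of cells and library. ACTG2 fills 64.3% and 52.0% of the bar in keratin-positive contractile cells and at most 21.4% in the mural bars.

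MYH11, the heavy chain that forms the smooth muscle thick filament, differed least between the clusters in straight skin. The keratin-positive cells had 2214 and 2056 CPM, with medians of 1712 and 1822 CPM and highest cells of 22394 and 20644 CPM. Mural cells had 600.3 and 1462 CPM, with medians of 0 and 493 CPM and highest cells of 8538 and 9002 CPM. Both keratin-positive values exceeded both mural values while the single cells overlapped. The log2 ratio was 1.88 in straight (1.67 to 2.10) and 0.49 in curly skin (0.39 to 0.59).

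MYL9, the light chain whose phosphorylation switches the motor on, followed. It was at 9797 and 7542 CPM in the keratin-positive contractile cells (medians 7623 and 6429.7, highest cells 25338 and 16860.4) and at 2176 and 5263 CPM in mural cells (medians 965 and 1889, highest cells 14759 and 24757). The straight mural cells were the lowest group and the straight keratin-positive cells the highest, with overlapping cells. Its log2 ratio was 2.17 (2.06 to 2.28) and 0.52 (0.47 to 0.57).

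CNN1, which binds actin and damps the myosin ATPase, was at 7211 and 4508 CPM in the keratin-positive contractile cells, with median cells of 5848 and 3878 CPM and highest cells of 14038 and 12357 CPM. In mural cells it was at 574 and 2210.5 CPM, with medians of 0 and 281 CPM and highest cells of 9272 and 10093 CPM. It was detected in only 21 of 84 straight mural cells but in 86 of 154 curly ones. Keratin-positive cells were 12.6-fold higher in straight (log2 3.65, 3.45 to 3.86) and 2.04-fold higher in curly skin (log2 1.03, 0.95 to 1.11).

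TAGLN, an actin-bundling protein early in smooth muscle, was the only member present in all 49 straight keratin-positive cells, the lowest of which had 1544 CPM. Pooled levels were 22739.8 and 15563 CPM there (medians 17517 and 12159, highest cells 41288 and 42056) and 3712 and 8976 CPM in mural cells (medians 1879.9 and 5496, highest cells 20811 and 27251). The order of the 4 groups was that of MYL9, and cells overlapped. Its log2 ratio was 2.62 (2.53 to 2.70) in straight and 0.79 (0.75 to 0.83) in curly skin.

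DES, the desmin filament that ties dense bodies together in muscle, went the other way. Keratin-positive contractile cells had 3 UMIs in 1 straight cell and 7 UMIs in 7 curly cells, or 7.21 CPM (1.49 to 21.1) and 2.93 CPM (1.18 to 6.03). Mural cells had 794 and 2239 CPM, with UMIs in 55 of 84 and 84 of 154 cells, a median of 296 and 205 CPM, and highest cells of 8609 and 15378 CPM. The pooled levels lay far apart, though cells at 0 were found in both clusters, and DES was lower by 110.2-fold in straight (log2 -6.78, -9.07 to -5.22) and 765-fold in curly keratin-positive cells (log2 -9.58, -10.90 to -8.53). The keratin-positive cells were the deeper ones, with 416054 and 2393148 UMIs in all against 381484 and 664110 in mural cells.

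Taken as a set, 6 of the 8 genes were higher in keratin-positive contractile than mural cells in both libraries, which was true of 37.3% of the 3811 genes compared. Past 2-fold in both libraries there were 3 of 8 (ACTA2, ACTG2 and CNN1), against 9.84% of all genes, and 15.9% either way. DES was the 1 lower in both libraries, against 29.9% of all genes, and it was past 2-fold, against 6.06%. The median log2 ratio of the 8 was 2.49 in straight and 0.66 in curly skin, beside -0.06 and 0.18 for all genes. All 8 genes met the minimum of 100 UMIs over these cells. When only cells reaching the study's stated number of genes per cell were kept, which left 28 and 191 keratin-positive and 18 and 25 mural cells, 3 of the 8 remained higher in both libraries. MYH11 and MYL9 then stood at -0.46 and -0.34 in curly skin and CNN1 at -0.055, while ACTA2 (0.37), ACTG2 (1.83) and TAGLN (0.33) kept their side.

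**Figure D4:**
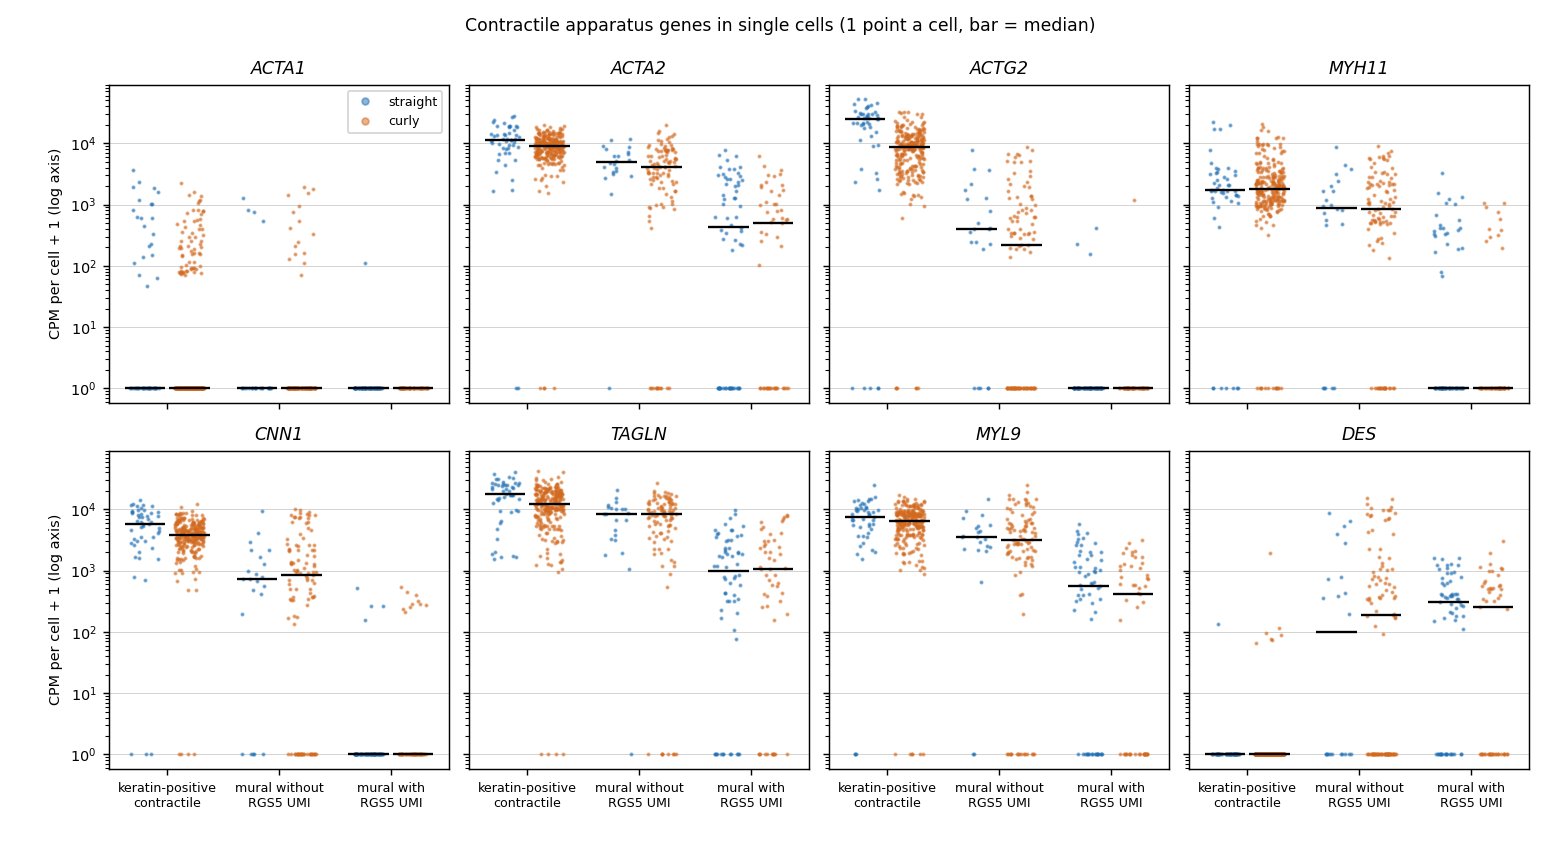
CPM + 1 of each gene in every cell, on a log axis, for keratin-positive contractile cells and for mural cells with and without RGS5, by library, with a bar at the median. Medians of mural cells without RGS5 lie between those of the other groups for ACTA2, ACTG2, MYH11, CNN1, TAGLN and MYL9, and the keratin-positive cells are at 0 for DES in all but 1 and 7 cells.

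The mural cluster was not uniform, and its cells were split after these values were seen by whether a cell had an RGS5 UMI. A shallow cell can lack an RGS5 UMI and still hold RGS5 RNA, so the split does not show 2 kinds of cell. In the RGS5-positive cells, 62 straight and 51 curly, the contractile set was sparse: ACTA2 was at 1444 and 1010 CPM, TAGLN at 1836 and 2282 CPM, MYL9 at 1077 and 761 CPM and MYH11 at 192 and 137 CPM. ACTG2 had 3 and 1 UMIs in all of them, CNN1 4 and 12, and ACTA1 1 and 0. Yet DES was in 44 of 62 and 27 of 51 of these cells, at 370 and 374 CPM, a level that varied little between libraries.

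Mural cells without an RGS5 UMI, 22 straight and 103 curly, carried more of every member when their UMIs were pooled. In them ACTA2 was at 6103 and 6066 CPM, TAGLN at 8598 and 11107, MYL9 at 5036 and 6696, MYH11 at 1663 and 1884, CNN1 at 2031 and 2890, ACTG2 at 1531 and 1695, ACTA1 at 208 and 153 and DES at 1899 and 2833 CPM. All 8 genes were higher than in the RGS5-positive cells in both libraries, against 26.6% of the 1272 genes compared, and all 8 were past 2-fold, against 5.74%. Log2 ratios ran from 2.08 for ACTA2 to 7.14 for ACTG2 (5.56 to 9.43, on 3 UMIs) in straight skin, and from 2.28 for TAGLN to 8.09 for ACTG2 (5.60 to 13.39, on 1 UMI) in curly skin. ACTA1 in curly cells, at 77 UMIs against 0, was at least 8.17-fold higher, with the 0 set to 3 counts over the group. The RGS5-positive cells were shallower, with medians of 3384.5 and 2820 UMIs against 4740 and 5014. Their fibroblast marker sum was higher, at 3831 and 3991 CPM against 1625 and 1733 CPM. Their keratin sum was higher too, at 1712 and 5893 CPM against 1058 and 1854 CPM. The 8 mural markers summed to 5264 and 3417 CPM in them against 841 and 802 CPM. That sum includes RGS5, which made the split. ITGA8, from the dermal sheath list, was lower in them, at 7.26 and 0 CPM against 75.6 and 43.7 CPM, on few UMIs. The part of depth and of these markers in the split was not tested.

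For DES the pooled lead did not hold for the typical cell. The median cell without RGS5 was at 97.7 and 186 CPM and the median RGS5-positive cell at 307 and 253 CPM, and DES was detected in 11 of 22 and 57 of 103 cells without RGS5. Desmin in cells without RGS5 was concentrated in a minority. Cells above 2000 CPM of DES numbered 5 of 22 and 20 of 103 and held 93.5% and 93.1% of the DES UMIs of these cells. ACTG2 was found in 5 of those 5 and 19 of those 20. In RGS5-positive cells, 0 of 62 and 1 of 51 were above 2000 CPM. ACTG2 and desmin thus met in the same cells outside the keratin-positive cluster, where ACTG2 was pooled at 2288 and 2443 CPM in DES-positive cells without RGS5 and at 493 and 202 CPM in DES-negative ones. Median depth in the latter was lower, at 4358 and 3821.5 UMIs against 5091 and 5641.

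Against the mural cells without RGS5, the keratin-positive cells kept a smaller lead. The log2 ratio was 4.11 in straight and 2.66 in curly skin for ACTG2, 1.83 and 0.64 for CNN1, 1.40 and 0.49 for TAGLN, 1.21 and 0.68 for ACTA2, 0.96 and 0.17 for MYL9 and 0.41 and 0.13 for MYH11. Here 6 of 8 genes were higher in both libraries, against 42.6% of 3447 genes, but only ACTG2 was past 2-fold in both, against 11.7%, and DES was lower (log2 -8.04 and -9.92), against 5.16%. ACTA1 was higher in straight (1.58, 0.95 to 2.28) and lower in curly skin (-0.50, -0.87 to -0.11).

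A split of the mural cells by their other mural markers gave no such common direction in pooled UMIs. In straight skin the 16 cells with under 2 of those markers exceeded the other 68 for all members (log2 0.70 to 2.63). The ACTA1 interval spanned 0 (-0.11 to 2.67), and 1 cell held 87.5% of the DES and 79.0% of the CNN1 UMIs of the 16. In curly skin the 58 such cells had less than the other 96, from -2.19 to -0.11. Median cells read otherwise. Medians of ACTA2, MYH11, CNN1, TAGLN and MYL9 were higher with under 2 markers in both libraries. For ACTA2 they were 2821 and 2909 CPM against 1365 and 2062. The DES median was lower in both, at 0 and 63.0 CPM against 352 and 316.

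Outside both clusters 7 of the 8 genes were lower than in either, DES being the exception. The ORS-like cluster of 26 straight and 88 curly cells, named by outer root sheath markers, was next for TAGLN (868 and 920 CPM) and MYL9 (434 and 367 CPM), with ACTA2 at 43.4 and 53.5 CPM. An unnamed cluster led by KLK6 and CDSN followed for TAGLN with 799 and 266 CPM, though 1 straight cell held 76.4% of its straight UMIs. ACTG2 was at 88.6 CPM in straight luminal sweat gland-like cells, where 21 of 105 had a UMI, and 21.7 CPM in curly ones. For DES the level next to the mural cells was that of dermal papilla-like cells, 24.2 and 22.9 CPM in 165 of 1283 and 60 of 712 cells, and every other cluster was at 7.21 CPM or less. Keratin-positive contractile cells did not stand detectably above all other clusters together for DES (log2 0.86, -1.43 to 2.43, and 0.34, -0.99 to 1.42). In endothelial-like cells the 8 genes summed to 100.4 and 125 CPM. Of the 22 straight ACTA2 UMIs there, 77.3% lay in 1 cell, and how much of the sum is free RNA was not tested.

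The wider pathway was read from a list of 62 genes, of which 58 were in the table and 37 had enough UMIs to compare. Between the keratin-positive contractile and mural cells, 3 of 37 were at least 2-fold higher in both libraries and 6 were at least 2-fold lower, beside 9.84% and 6.06% of all genes. Higher were ACTN1, the actin crosslinker alpha-actinin (800.4 and 709.5 CPM against 218 and 264), and FHL2, a LIM-domain cofactor (603 and 203 against 65.5 and 45.2). SRF, the transcription factor that drives smooth muscle genes, was higher too (45.7 and 40.1 against 13.1 and 16.6). Its intervals reached below 2-fold (log2 1.80, 0.33 to 3.58, and 1.28, 0.37 to 2.33). Lower were PLN, phospholamban, the brake on the calcium pump (19.2 and 30.1 against 456 and 1506), EDNRA, an endothelin receptor (135 and 138 against 338 and 306), VIM, the mesenchymal intermediate filament vimentin (1149 and 2430 against 5196 and 6452), MYH9, a non-muscle myosin (36.1 and 30.5 against 183 and 88.8), ITGA1, a collagen receptor (36.1 and 15.0 against 131 and 73.8), and FHL1 (0 and 1.67 against 60.3 and 238). Of the listed intermediate filament genes, VIM was thus lower as DES was, while SYNM, the muscle filament protein synemin, was at 272 and 208 CPM against 52.4 and 114 (log2 2.37, 1.68 to 3.14, and 0.86, 0.51 to 1.23), past 2-fold in straight skin only. All 8 listed proteins of the thin filament were compared, and 0 of them passed 2-fold in both libraries, CALD1 standing at 9287 and 6831 CPM against 2970.0 and 3876.

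Across the 42 levels of 21 clusters in 2 libraries, the genes with the pattern most like each member, by Pearson's r of log2(CPM + 1) over 13196 genes, were JPH2 for 5 of the 8 (ACTA1, ACTA2, ACTG2, MYH11 and CNN1, r from 0.91 to 0.94), NEXN for TAGLN (0.92) and DTNA for MYL9 (0.91). Second places went to LMOD1 for ACTA1 and CNN1, TPM2 for ACTA2 and MYH11, FBXL22 for ACTG2, CSRP1 for TAGLN and NEXN for MYL9, at r from 0.89 to 0.93. LMOD1 and TPM2 were also among the contractile markers by which the 2 contractile clusters were picked, so their places are no separate evidence. JPH2 (junctophilin) joins the cell membrane to the calcium store in muscle. It was at 28.8 and 38.9 CPM in the keratin-positive contractile cells and 13.1 and 27.1 CPM in mural cells. These are low counts, since in straight skin 3 UMIs make 7.21 CPM in the keratin-positive and 7.86 CPM in the mural cluster. DES was most like OGN (0.93) and ASPN (0.92), both matrix proteoglycans, and OGN was at 0 in the keratin-positive cells and at 254 and 224 CPM in mural cells. Among the members, ACTA2 and CNN1 were most alike (0.97), then TAGLN and MYL9 (0.96), and DES stood apart with r from 0.52 to 0.66. These correlations describe clusters that share libraries and depth, and they carry no test.

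Between wool types the 2 clusters moved in opposite directions. In keratin-positive contractile cells all 8 genes were lower in the curly library, against 42.2% of 2974 genes, and 3 passed 2-fold (ACTA1, ACTG2 and DES), against 2.29%. ACTA1 fell by 2.52 on the log2 scale (interval -2.77 to -2.26) and ACTG2 by 1.31 (-1.34 to -1.28). DES rested on 3 and 7 UMIs and had an interval that spanned 0 (-1.30, -3.43 to 1.28). It is counted above though it was the 1 member under the minimum of 100 UMIs, which all 2974 genes met. CNN1 was at -0.68, TAGLN at -0.55, ACTA2 at -0.53, MYL9 at -0.38 and MYH11 at -0.11 (-0.21 to -0.00). The median of the 8 was -0.61, beside 0.10 for all genes. MYH11 crossed 0, to 0.02, when only cells reaching the study's stated number of genes were kept.

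The library difference moved with how the cells were grouped. Clustering on all genes, members included, added 33 straight and 20 curly cells from a basal epidermis-like cluster with 4.08 and 204 CPM of ACTG2 and 4825 and 5734 CPM of KRT5, and then 1 of 8 genes passed 2-fold, as it did without integration of the libraries. The cluster then held 82 straight and 273 curly cells, or 83 and 270 without integration, in place of 49 and 253. Depth differed with wool type too, at 7036 and 10887 median UMIs, with 20 of 49 straight and 44 of 253 curly cells under 2000 UMIs. The part of these in the difference was not tested.

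In mural cells all 8 genes were higher in the curly library, against 41.6% of 1272 genes, and 6 passed 2-fold, against 6.45%. Log2 ratios ran from 0.82 for ACTA2 (0.72 to 0.93) and 0.94 for ACTA1 through 1.27 for TAGLN and MYL9, 1.28 for MYH11 and 1.57 for ACTG2 to 1.95 for CNN1 (1.74 to 2.16), with DES 2.82-fold higher. All genes had a median of -0.10 and the 8 a median of 1.28. Mean CPM over single cells in place of pooled UMIs left 2 of 8 past 2-fold. Without the deepest cell of each library, a check added after the data were seen, all 8 stayed higher, at 0.74 to 1.80.

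The make-up of the mural cluster differed in the same direction, since RGS5-positive cells, lower in the pooled level of all 8 genes, were 73.8% of its straight and 33.1% of its curly cells, and RGS5 itself was at 1730.1 and 277 CPM. Within the mural cells without RGS5, 6 genes were higher and 2 lower in curly skin, against 48.2% and 51.8% of 741 genes, and 0 of 8 passed 2-fold, against 6.21% higher and 1.08% lower. ACTA1, with 22 and 77 UMIs, was the 1 gene under the minimum of 100. Ratios were -0.44 for ACTA1, -0.01 for ACTA2 (-0.13 to 0.12), 0.15 for ACTG2, 0.18 for MYH11, 0.37 for TAGLN, 0.41 for MYL9, 0.51 for CNN1 and 0.58 for DES. One straight cell held 45.6% of the CNN1 and 45.3% of the DES UMIs of its 22 cells, and without the deepest cell of each library CNN1 (1.15) and DES (1.18) passed 2-fold. Within the RGS5-positive cells 3 genes were higher and 5 lower, against 44.5% and 55.5% of 587 genes, and 1 was past 2-fold higher, against 7.16%, which was CNN1 on 12 and 4 UMIs (2.37, 0.64 to 4.46). Only ACTA2, TAGLN, MYL9 and DES met the minimum of 100 UMIs there. ACTA2 (-0.52), MYL9 (-0.50) and MYH11 (-0.49) were lower there and DES was level (0.02, -0.47 to 0.49). A change in the number of cells captured with and without an RGS5 UMI and a change within cells cannot be told apart in the whole mural cluster.

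In all other clusters together, where the 8 genes summed to 108 and 179 CPM, 7 genes were higher in curly skin, by 0.53 for TAGLN to 1.35 for CNN1, and DES was lower (-0.78).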

How the data were processed

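Skin cells of Hu sheep lambs, 3 per wool type pooled into 1 library, were sequenced with 10x Genomics chemistry. The authors aligned the reads with Cell Ranger (3.0.2 in the submitters' processing notes) to a Rambouillet assembly and deposited natural log values, ln(1 + UMIs scaled to 10000 per cell). UMI counts had been assumed when tests were planned, so counts were recovered from the deposited natural log values, and 100% of 28552149 were whole within 0.01. The deposited table holds cells below the study's stated minimum of 1750 genes (8285 of 14037 cells reach it), and the cell total the study states is another.

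Cells were clustered in R 4.3.3 with Seurat 5.3.0 (integration anchors, 2000 variable genes, 30 dimensions, the lowest resolution with at least 19 clusters, 0.3), without the members and their pathway genes. A contractile cluster needed a contractile marker score of at least 1.5 with 5 CPM added and at least 3 markers in 10% of its cells, and was called mural where its mural score exceeded its keratin score and keratin-positive otherwise. That keratin score, taken against all other clusters, many of which hold keratins, was -0.14. Doublets were kept, and an alternative removed the top 6% of doublet scores per library (scanpy 1.11.5). UMIs were summed per class and library with numpy 2.4.6, scipy 1.17.1 and pandas 2.3.3, ratios were called past 2-fold over genes with at least 100 UMIs, and intervals were exact Poisson or binomial. The ratio script was tested on simulated data. No p-value was computed, with 1 library per wool type. Named genes beside the members were pathway genes past 2-fold (up to 4 a role), the 2 most correlated genes of each member, and the keratin, mural and skeletal muscle markers. CALD1, SYNM, ACTC1 and markers of other cell types were named after their values were seen. Members and lists were chosen with earlier results of these data known. No coordinates or sequences were used, since the annotation table at hand is of another assembly and served for the KRT14 name only.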

Additional observations from a re-analysis of the deposited data

Results flagged for a closer look

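For 7 of the 8 genes the curly over straight difference had opposite signs in the 2 contractile clusters, with counting intervals on either side of 0 in each. The log2 ratio in mural cells minus that in keratin-positive contractile cells was 3.46 for ACTA1, 2.88 for ACTG2, 2.62 for CNN1, 1.82 for TAGLN, 1.65 for MYL9, 1.39 for MYH11 and 1.36 for ACTA2. With 1 library per wool type the difference was not tested. The mural side did not hold within the split by RGS5: without RGS5 ACTA1 was at -0.44, ACTA2 at -0.01, ACTG2 at 0.15 and MYH11 at 0.18, with intervals that spanned 0, and with RGS5 ACTA2 (-0.52) and MYL9 (-0.50) were lower in curly skin. TAGLN (0.37), MYL9 (0.41) and CNN1 (0.51) stayed higher without RGS5. For MYH11 the side of 0 in the keratin-positive cells was lost when only cells reaching the study's stated number of genes were kept.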

How the results depend on the processing

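No paired analysis was possible because each wool type has 1 library. For the same reason no replicate could be left out. Of 256 ratios of single genes under the alternatives, 162 stayed within 1.5-fold of the reported value, 89 moved further and 5 changed sign against a called direction. Those 5 were past 2-fold as reported. Counting ratios of any size, 234 of the 256 kept their sign. Genes higher in keratin-positive contractile than mural cells in both libraries numbered 6, and 3 with only cells reaching the study's stated number of genes, as did the genes that ranked highest there in both libraries (6, then 3), with CNN1 at -0.055 in curly skin. Genes past 2-fold between wool types in keratin-positive contractile cells numbered 3, and 1 with all genes in the clustering and 1 without integration, and DES turned to 1.33 with mean CPM per cell. In mural cells 6 were past 2-fold, 8 with only cells reaching that number of genes, 7 with median of ratios scaling, 2 with mean CPM per cell, and, in splits added after seeing the data, 0 without RGS5 and 1 with RGS5, where ACTG2 (-0.44), MYH11 (-0.47) and MYL9 (-0.50) turned sign (a small constant was added to each sum here). ACTA2, not past 2-fold to begin with, also turned there (-0.52, interval -0.79 to -0.25), and without RGS5 ACTA1 (-0.44) and ACTA2 (-0.01) fell below 0 with intervals that spanned it. Pathway genes past 2-fold numbered 9, and 5 with only cells reaching that number of genes, 16 at a minimum of 20 UMIs, 19 with no minimum and 22 against RGS5-positive mural cells. The share of all genes past 2-fold, 15.9%, ranged from 12.8% to 17.9%. Removing doublets or clustering at a higher resolution left each of these counts in place. The causes of these moves were not tested, beyond the fewer cells or genes each setting keeps. With 0 to 12 UMIs behind some values of ACTG2, CNN1, ACTA1 and DES, depth limits those ratios.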
